A study of Rattus norvegicus with 49 samples.

Results

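Cytosolic ribosomal proteins are the protein components of the ribosomes that translate most cellular mRNAs. Messenger RNA of their genes was followed in 2 organs, liver and kidney. The animals were male rats of the outbred Harlan Sprague Dawley stock. They received propylene glycol phenyl ether (PPH), a glycol ether solvent, in corn oil by gavage on 5 consecutive days and were killed a day later. The rats were 6 to 8 weeks old at assignment to the groups, and every group received the vehicle at 5 mL/kg. Liver RNA came from 5 rats at 0 mg/kg and from 4 rats at each of 1, 10, 100, 500 and 1000 mg/kg. For kidney there were 5 arrays at 0 mg/kg, 3 at 500 mg/kg and 4 for every other dose, and rats given 2000 mg/kg yielded no tissue. The treatment text of the labels names another compound (MCHM) than the title and the sample labels, which are followed here. Each of the 49 samples was hybridised to its own Affymetrix Rat Genome 230 2.0 array, and the values are log2 levels per probe set.

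The genes were chosen by symbol. They are those whose symbol starts with Rpl or Rps followed by a digit, or is Rplp0, Rplp1, Rplp2 or Rpsa, without the Rps6k kinases, and that have a probe set annotated to that symbol alone. Of 14217 genes analysed, 50 met this rule, 34 with large subunit symbols and 16 with small subunit symbols. No filter on low values was applied, so all 50 were tested. The rule used no comparison between doses, and the mean level over all arrays chose the probe set where a gene had several. Ribosomal protein genes whose probe sets carry several symbols fall outside it, and 36 such probe sets were examined separately. Some of the 50 are paralogs or annotated pseudogenes (Rpl3l, Rpl7l1, Rpl26l1, Rpl39l1, Rps27l, Rps4y2, Rpl37-ps2, Rps4x-ps1), and near-identical copies of many ribosomal protein genes exist, so a probe set can hold signal from more than 1 locus.

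Each cytosolic ribosome carries a small subunit, which reads the mRNA, and a large subunit, which joins amino acids. Cells make the proteins of both subunits in matched amounts. Part of that control acts on translation: many vertebrate ribosomal protein mRNAs begin with a C followed by an unbroken run of pyrimidines, the 5′ terminal oligopyrimidine (TOP) tract, through which the growth kinase mTORC1 and the factor Larp1 adjust their translation. RNA levels on an array do not measure that translational step. In liver and kidney these mRNAs are among the most abundant of any cell, and Rplp0 is often used as a reference transcript.

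RefSeq start site sequences of build GRCr8 were matched by symbol for 43 of the 50 genes. The run of C and T that includes the first transcribed base, read on the gene's own strand, reached 5 bases or more in 20 of 43 genes (46.5%), against 10.7% of 11691 other genes on the array and 11.7% of all 27457 promoters in the table. A run of 10 or more was found in 13 of 43 genes (30.2%), against 2.14% of the other genes on the array. The counted run can extend to both sides of the start, so it is not the TOP tract itself. At 19 of the 43 starts (44.2%) there was no pyrimidine, against 60.7% of the other genes on the array. A start at C with at least 5 transcribed pyrimidines, a count added after the other counts were seen, was found in 12 of 43 genes (27.9%), against 2.56% of the other genes on the array. Among 59 mitochondrial ribosomal protein genes, whose products build the separate ribosome of mitochondria, 16.9% had a run of 5 or more. The share was 14.3% for 70 ribosome biogenesis genes. These matches describe annotated starts, which can be shifted by some bases from the starts used in these tissues.

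The genes whose values are described further on differ at their annotated starts. Each line below gives 15 bases before the start and 15 bases from it, 5′ to 3′ on the gene's strand. Capitals mark the C or T run that includes the first transcribed base, and a line with no capitals has a purine there.
Rps23 (chr2:23814502-23814531, plus strand): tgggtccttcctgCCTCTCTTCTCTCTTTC
Rps15 (chr7:10068101-10068130, minus strand): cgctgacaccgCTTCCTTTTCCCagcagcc
Rpl4 (chr8:73566462-73566491, plus strand): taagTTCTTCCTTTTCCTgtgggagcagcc
Rpl12 (chr3:36661925-36661954, plus strand): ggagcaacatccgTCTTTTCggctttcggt
Rplp0 (chr12:46718376-46718405, minus strand): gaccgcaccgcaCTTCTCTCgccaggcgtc
Rpl24 (chr11:58128391-58128420, minus strand): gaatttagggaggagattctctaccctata
Rpl41 (chr7:1563483-1563512, minus strand): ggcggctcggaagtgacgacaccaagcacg
Rpl3l (chr10:14258431-14258460, plus strand): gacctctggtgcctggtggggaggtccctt
Rps27l (chr8:76443643-76443672, plus strand): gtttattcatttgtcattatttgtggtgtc
Rpl39l1 (chr10:5966607-5966636, minus strand): actgccaggccgTCCCgctatcctggtgtg

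Rps23, a protein of the small subunit's decoding centre, has a run of 21 bases that goes on past the window shown. Rpl4, which lines the exit tunnel of the large subunit, has a run of 14 bases, of which 3 are transcribed, and Rps15 one of 12 with 8 transcribed. Rpl41 and Rpl24 have none at the annotated start. The paralogs Rpl3l and Rps27l have none, and Rpl39l1 has 4 bases. Other promoter letters were less marked. The letters CCGGAA, searched on both strands from 250 bases before to 50 bases after the start, were present in 17 of 43 genes (39.5%), against 24.2% of the other genes on the array and 61.4% of the ribosome biogenesis genes. The share with CCGGAA was 54.2% for mitochondrial ribosomal protein genes, 37.9% for translation factor genes and 15.8% for all promoters in the table. TATAAA was present in 6 of 43 (14.0%), against 8.43% of the other genes on the array and 14.3% of all promoters in the table.

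**Figure D1:**
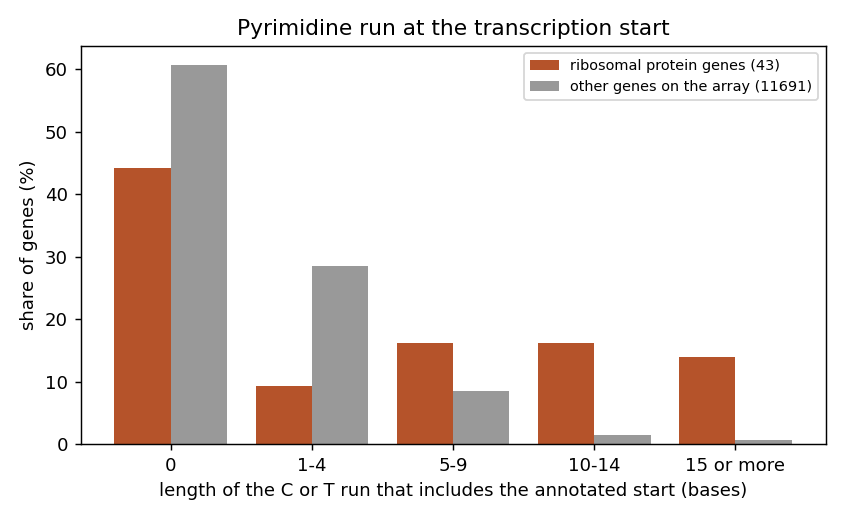
Length in bases of the C or T run that includes the annotated transcription start (horizontal axis) against the share of genes in percent (vertical axis), for 43 ribosomal protein genes and 11691 other genes on the array. Runs of 10 bases or more were present in 30.2% of the ribosomal protein genes and in 2.14% of the others.

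Levels and array quality set the precision. Of the 50 genes, 38 had a mean level over 9, a split chosen after the levels were seen. In liver these had mean levels of 11.35 to 13.28, where the median gene was at 6.56, and in kidney of 11.23 to 13.71, where it was at 6.71. The other 12 had mean levels of 2.43 to 8.82 in liver and 2.29 to 8.71 in kidney: Rpl26l1, Rpl28, Rpl30, Rpl37-ps2, Rpl39, Rpl39l1, Rpl3l, Rpl7l1, Rps13, Rps27l, Rps4x-ps1 and Rps4y2. Some of these, such as Rps13, Rpl28, Rpl30 and Rpl39, encode core ribosome components. Probe sets differ in how strongly they respond to the same amount of mRNA, so these levels describe signal, and a low value is not evidence that the mRNA is scarce. As a check of the labelled organs, hepatocyte marker levels were 13.22 to 14.67 in liver and proximal tubule markers were 10.25 to 13.58 in kidney. In bulk tissue, fewer cells of a type and less RNA per cell cannot be told apart.

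At 1000 mg/kg no ribosomal protein gene passed the test in liver. The limma fit, with Benjamini-Hochberg adjustment over 14217 genes, called 0 of 50 members at an adjusted p under 0.05, where it called 149 genes in all (percent called 1.05%). The smallest adjusted p of a member was 0.158. At an unadjusted p under 0.05 there were 0 higher and 2 lower members (4%), against 12.4% of all genes. The median log2 change of the 50 genes was −0.0195, with 16 genes above 0 and 34 below, and the median of all genes was 0.015. With each array centred on its own median over genes it was −0.054. Leaving out 1 array at a time, it ran from −0.051 to 0.0016, and it was above 0 only without replicate 2 of the dose. On the same arrays 7 of 7 macrophage markers (median log2 change −0.25), 4 of 4 erythroid markers (−0.15) and 7 of 7 hepatocyte markers (−0.076) lay below 0, with none of them called. Their part in the members' values was not tested. The data bound the change in array signal narrowly: for the 38 brighter genes the log2 changes ran from −0.18 to 0.05, and their 95% intervals from −0.30 to 0.19. How closely the signal of such bright probe sets follows the amount of mRNA was not tested. The interval lay inside ±0.5 on the log2 scale, which is 1.41-fold, for 48 of 50 members and for 82.1% of all genes.

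Rpl41, a very short protein of the large subunit, had the smallest p in liver. Its levels at 1000 mg/kg were 12.29, 12.28, 12.28 and 12.40, against 12.49, 12.53, 12.46, 12.51 and 12.47 in controls. All 4 treated arrays lay below every control array, the 1 member of 50 (2%) with that pattern where 1.73% of all genes had it. The means were 12.31 ± 0.059 at 1000 mg/kg (SD, n = 4) and 12.49 ± 0.029 in controls (SD, n = 5), a log2 change of −0.18 with a standard error of 0.058 (limma adjusted p = 0.158). With a variance trend and robust moderation the adjusted p was 0.044, and over all alternatives it ranged to 0.354. At 500 mg/kg its levels were 12.53, 12.55, 12.57 and 12.52, at the upper end of the controls or above them.

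Rpl39l1, a paralog of Rpl39 whose human and mouse counterpart is known from testis, had a dim probe set. Its levels were 3.26, 3.25, 3.44 and 3.28 at 1000 mg/kg, against 3.97, 3.89, 4.36, 3.95 and 3.40 in controls. The lowest control array lay within the treated range. The log2 change was −0.61 (95% interval −1.12 to −0.096, limma adjusted p = 0.295), and at 1 mg/kg it was already −0.56 (adjusted p = 0.481). Rps13, of the small subunit, had a log2 change of 0.27 (adjusted p = 0.481), also from a dim probe set at 4.61 ± 0.21 against 4.34 ± 0.23 in controls. Rpl7, a large subunit protein, was at 12.30, 12.31, 12.29 and 12.42 at 1000 mg/kg, against 12.37, 12.43, 12.41, 12.39 and 12.44 in controls. That is a log2 change of −0.079 (adjusted p = 0.604), with overlapping groups. The other probe set of Rpl7, at a level of 6.53, had a change of 0.094, and the mean of the 2 was 0.008. In kidney at 1000 mg/kg that other probe set had a change of 0.19, and the chosen one 0.014. The limma fit over 20862 probe sets gave the other one an adjusted p of 0.298 there.

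In kidney at 1000 mg/kg the test again called 0 of 50 members, where 220 genes were called in all (percent called 1.55%). The smallest adjusted p of a member was 0.228. At an unadjusted p under 0.05 there were 3 higher and 0 lower members (6%), against 13.3% of all genes. The median log2 change was 0.031, with 39 of 50 genes above 0, while 44.5% of all genes lay above 0 and their median was −0.017. With the arrays centred it was 0.077. On the same arrays 6 of 7 macrophage markers lay below 0 (median log2 change −0.11). Of these 7 markers 1 was called, lower (14.3%, against 1.55% of all genes). Below 0 were also 5 of 7 adipocyte (−0.15), 4 of 5 endothelial (−0.11) and 5 of 6 proximal tubule markers (−0.052), none called. Proliferation markers are described further on. The part of these markers in the members' values was not tested. The log2 changes of the 38 brighter genes ran from −0.059 to 0.13, with 95% intervals from −0.18 to 0.30. The interval lay inside ±0.5 for 49 of 50 members and 87.4% of all genes.

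Rpl4 had the smallest p in kidney. Its levels at 1000 mg/kg were 12.18, 12.12, 12.16 and 12.05, against 11.96, 12.03, 11.94, 12.05 and 12.002 in controls. Treated replicates 1 to 3 lay above every control array, and replicate 4 within the control range. The log2 change was 0.13 ± 0.049 (SE; limma adjusted p = 0.228). Rps27l, a paralog of Rps27 that is a p53 target in human cells, was at 7.61, 7.31, 7.39 and 7.39 at 1000 mg/kg, against 7.01, 7.11, 7.05, 7.36 and 7.33 in controls. Its groups overlapped, with a log2 change of 0.25 ± 0.11 (SE; adjusted p = 0.334), and in liver the change was −0.030. Rpl23a, which lies at the tunnel exit of the large subunit, had a log2 change of 0.11 (adjusted p = 0.374), and Rpl21 one of 0.13 (adjusted p = 0.424). In these 3 bright genes (Rpl4, Rpl23a, Rpl21) replicate 4 was the lowest of the treated arrays.

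**Figure D2:**
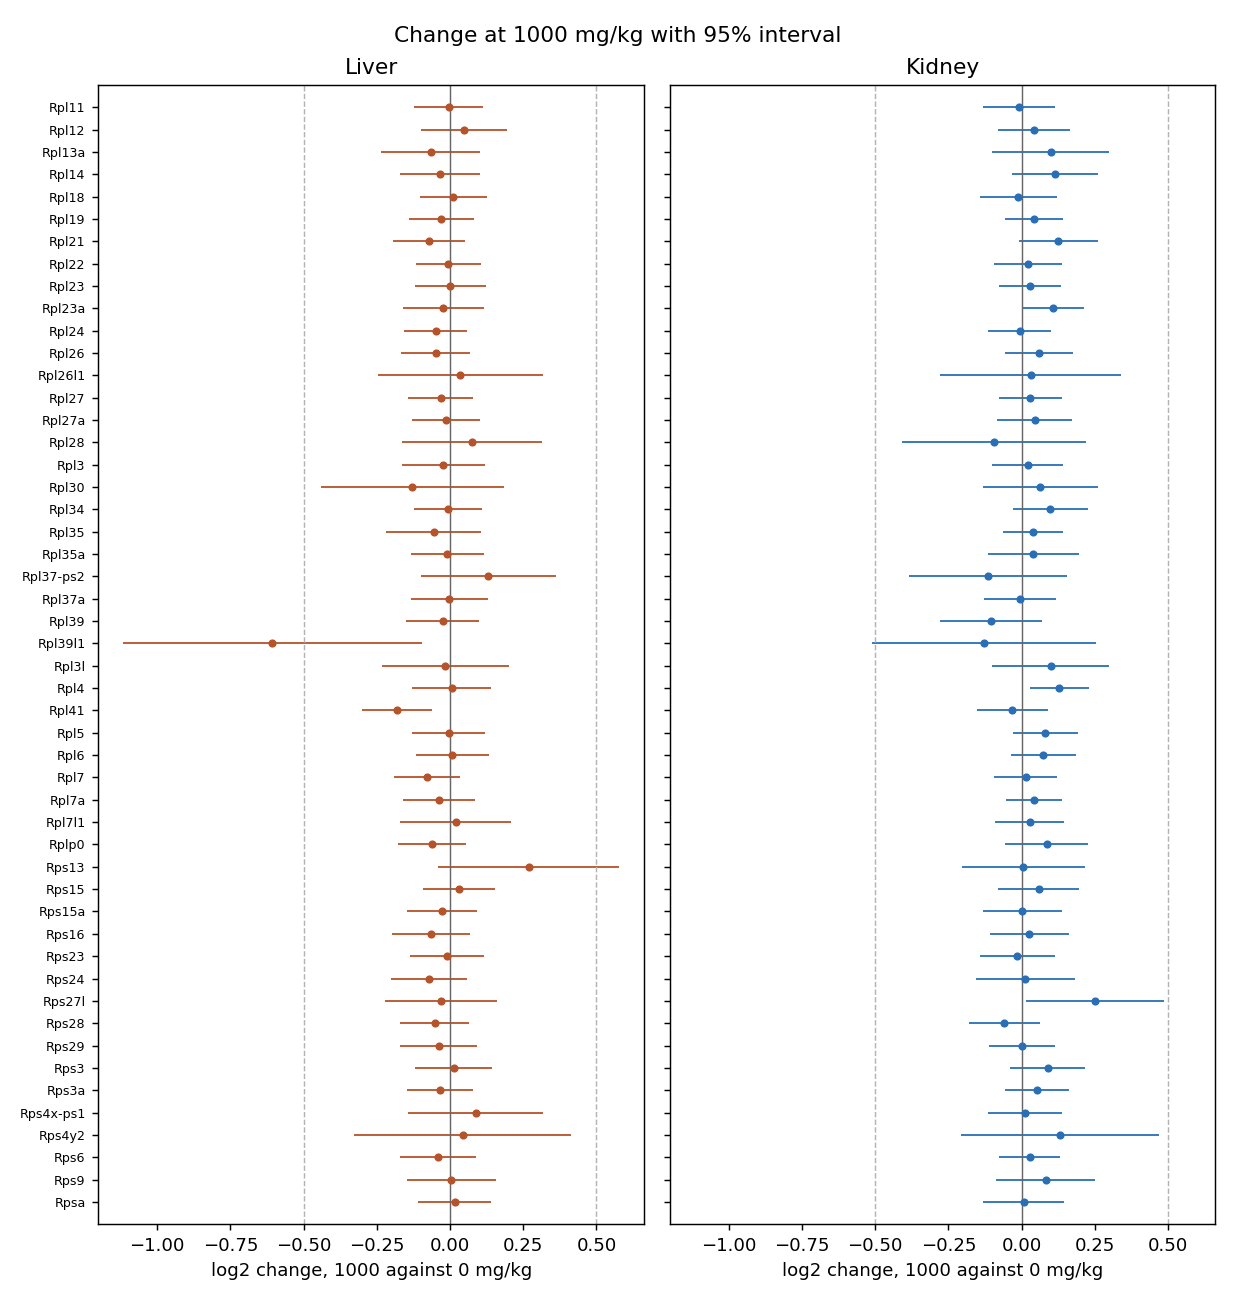
log2 change at 1000 mg/kg against 0 mg/kg (horizontal axis) for each of the 50 ribosomal protein genes (vertical axis), liver on the left and kidney on the right. Points are limma estimates and bars 95% intervals, with dashed lines at −0.5 and 0.5. All but 2 intervals in liver and 1 in kidney lie between the dashed lines.

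Of 15 genes listed for their role 9 had a probe set of their own, and none of the 9 passed the test at 1000 mg/kg. Rps27l, described above, had the smallest adjusted p among them (0.334 in kidney, limma), and Rpl5 in kidney was next (0.565). Rplp0, the base of the stalk that recruits elongation factors, had levels of 12.40, 12.45, 12.40 and 12.50 in liver at 1000 mg/kg, against 12.44, 12.60, 12.46, 12.52 and 12.48 in controls, a log2 change of −0.063 (95% interval −0.18 to 0.054). In kidney its change was 0.086 (−0.056 to 0.23). Rpl5 and Rpl11, which bind 5S ribosomal RNA and, when free of ribosomes, the p53 inhibitor Mdm2, had changes of −0.005 and −0.004 in liver and of 0.082 and −0.010 in kidney. Rps6, the small subunit protein phosphorylated by S6 kinases, had changes of −0.042 in liver and 0.027 in kidney. Rpsa, a small subunit protein also described as a laminin receptor, had changes of 0.016 and 0.008. Rpl3, near the peptidyl transferase centre, had changes of −0.022 and 0.021, and its paralog Rpl3l, known from muscle in mouse and human, −0.017 and 0.099. Rpl22 had changes of −0.006 and 0.022.

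At the lower doses 0 of 50 members passed in either organ. In liver the percent called over all genes was 0%, 0.00703%, 0% and 0.0492% at 1, 10, 100 and 500 mg/kg. In kidney it was 0% at 1, 10, 100 and 500 mg/kg. The slope over dose rank called 0 members in liver (percent called 0.661%) and 0 in kidney (1.39%). The smallest adjusted p of a member for the slope was 0.462 in liver (Rpl41) and 0.348 in kidney (Rps27l), with Rpl12 and Rpl4 next. Unadjusted p-values under 0.05 numbered 0, 0, 6 and 5 higher and 1, 0, 0 and 0 lower members at 1, 10, 100 and 500 mg/kg in liver. That is 2%, 0%, 12% and 10% of members, where 9.45%, 9.22%, 9.18% and 10.7% of all genes had such a p. In kidney they numbered 0, 0, 1 and 0 higher and 0, 0, 0 and 2 lower. That is 0%, 0%, 2% and 4% of members, against 2.98%, 7.35%, 6.83% and 5.08% of all genes.

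In liver at the middle doses most members lay slightly above the controls. The median log2 change of the 50 genes was 0.066 at 100 mg/kg and 0.071 at 500 mg/kg, with 47 and 46 genes above 0. Over all genes the medians were 0.018 and 0.022, and 55.6% and 56.5% lay above 0. At 1 and 10 mg/kg the medians of the 50 genes were 0.036 and −0.004 (−0.007 and −0.054 with the arrays centred), and at 1000 mg/kg −0.0195. The doses were not tested against each other. Other lists lay above the controls at 100 mg/kg too: 71 of 73 mitochondrial ribosomal protein genes (median 0.107) and 68 of 78 ribosome biogenesis genes (0.133) lay above 0. All 5 dose groups share the same 5 control arrays. The members' medians depended on scaling: with each array centred on its own median over genes, the median was 0.022 at 100 mg/kg and 0.018 at 500 mg/kg, and with quantile normalization it was 0.049 and 0.053. Markers of other cell types were read on the same arrays, and 0 of them passed the test at these doses. At 100 mg/kg all 6 lymphocyte markers measured lay above 0 (median log2 change 0.069) and all 4 erythroid markers below (−0.17), as did 5 of 6 proliferation markers (−0.35). At 500 mg/kg 4 of 6 lymphocyte markers (−0.039), 3 of 4 erythroid markers (−0.019) and 5 of 7 macrophage markers (−0.096) lay below 0, and 4 of 6 proliferation markers above (0.065). Replicate 3 alone carried the proliferation markers upward. Their mean minus the control mean was −0.38, −0.61, 1.66 and −0.42 on the 4 arrays. The hepatocyte marker medians were 0.013 and −0.016 at 100 and 500 mg/kg. The part of cell composition in these values was not tested.

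Groups that did not overlap were counted for each dose. Members moved together from array to array, as described further on, so the genes counted are not separate observations. At 500 mg/kg, 7 of 50 genes (14%) had all 4 liver arrays above every control array, where 3.55% of all genes did, and at 100 mg/kg 5 genes (10%), where 2.54% did. The 7 genes at 500 mg/kg, named after their values were seen, were Rpl11, Rpl12, Rpl27a, Rpl34, Rps15, Rps24 and Rpsa. Rps15, of the small subunit head, was at 11.83, 11.86, 11.91 and 11.80 at 500 mg/kg, against 11.73, 11.75, 11.71, 11.72 and 11.66 in controls. Its log2 change was 0.14 (limma adjusted p = 0.409). Rps23 was at 12.95, 12.80, 13.02 and 12.95, against 12.74, 12.82, 12.77, 12.73 and 12.82 in controls. Replicate 2 lay within the control range, and the change was 0.15 (adjusted p = 0.347). At 1000 mg/kg the change was 0.031 for Rps15 and −0.009 for Rps23. Of the brighter genes with a matched start, the 17 with a pyrimidine run of 5 bases or more had a median change of 0.082 at 500 mg/kg, and the 17 with a shorter run or none 0.053. At 1000 mg/kg the medians were −0.0089 and −0.037, and the ranges of the 2 classes overlapped at both doses.

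Kidney at 500 mg/kg had 3 arrays. The median log2 change was −0.051, with 8 of 50 genes above 0, where 48.3% of all genes lay above 0. On the same arrays 6 of 6 proliferation markers (median log2 change −0.85) and 5 of 6 lymphocyte markers (−0.098) lay below 0. Above 0 were 6 of 7 adipocyte markers (0.22) and 5 of 7 macrophage markers (0.086). The adipocyte marker mean minus the control mean was 1.48, −0.42 and −0.29 on the 3 arrays, so replicate 1 alone lay above 0. For the macrophage markers it was 0.16, 0.026 and −0.13. None of these markers was called, and their part in the members' values was not tested. In 5 genes (10%) all 3 arrays lay below every control array, where 2.55% of all genes did. Rpl24, a large subunit protein at the bridge between subunits, was at 12.07, 12.06 and 12.03 at 500 mg/kg, against 12.23, 12.25, 12.21, 12.17 and 12.21 in controls. Its log2 change was −0.16 ± 0.057 (SE; limma adjusted p = 0.713), and at 1000 mg/kg it was −0.006. Rpl27, also of the large subunit, was at 12.95, 12.84 and 12.84, against 13.06, 12.99, 12.96, 12.97 and 13.01 in controls, a log2 change of −0.12 (adjusted p = 0.970).

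In the remaining groups such counts were low. In liver, 1, 0 and 0 members lay wholly above controls at 1, 10 and 1000 mg/kg, where 1.89%, 2.7% and 3.45% of all genes did. Wholly below were 0 members at 1, 10, 100 and 500 mg/kg, where 0.732%, 0.886%, 0.879% and 1.01% of all genes were. In kidney, 0 members lay wholly above controls at any dose, where 0.436%, 0.675%, 0.457%, 1.75% and 1.62% of all genes did at 1 to 1000 mg/kg. Wholly below were 0, 0, 1 and 0 members at 1, 10, 100 and 1000 mg/kg, where 0.626%, 1.67%, 1.51% and 3.09% of all genes were.

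**Figure D3:**
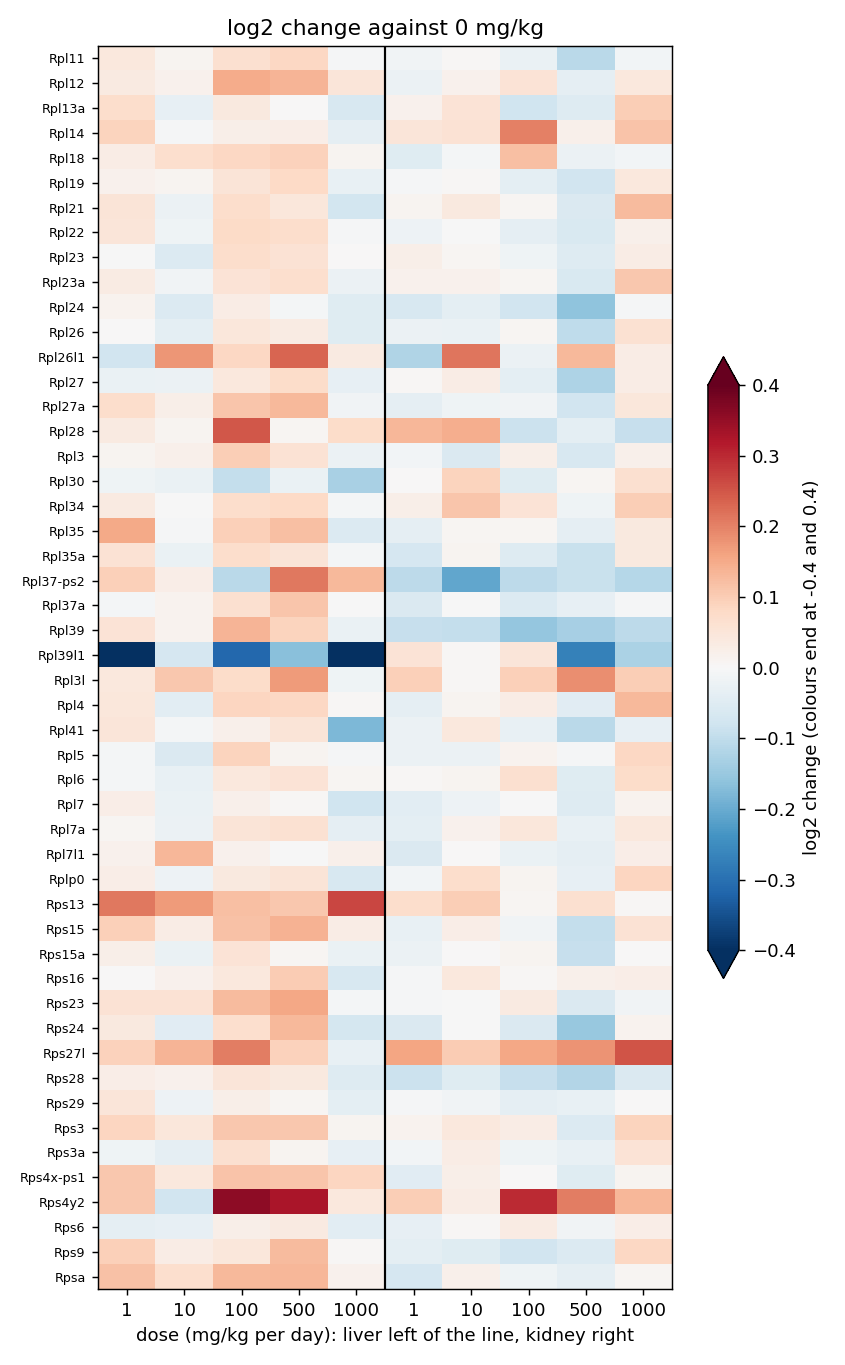
log2 change against the 0 mg/kg arrays of the same organ (colour, red higher and blue lower) for the 50 ribosomal protein genes (rows) at each dose in mg/kg (columns), liver left of the line and kidney right. In the liver columns at 100 and 500 mg/kg 47 and 46 of 50 genes lie above 0, and in the kidney column at 500 mg/kg 42 lie below 0.

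The organs' responses were compared directly at 1000 mg/kg. The contrast of the liver change minus the kidney change called 0 of 50 members, where 89 genes were called in all (percent called 0.626%), and 1 member (2%) had an unadjusted p under 0.05, where 12.3% of all genes had. That member was Rpl21, with a difference of −0.20 (limma adjusted p = 0.324), from a change of −0.072 in liver and 0.13 in kidney. The median difference of the 50 genes was −0.068, and that of all genes 0.037. With the arrays centred the members' median was −0.148. At 500 mg/kg the same contrast, added after the data were seen, called 0 of 50 members (percent called 0.0141%), and 9 (18%) had an unadjusted p under 0.05, where 6.94% of all genes had. Both fits treated liver and kidney arrays as independent. A shared block for arrays of the same dose and number was run for the contrast at 1000 mg/kg only. The 9 genes at 500 mg/kg are not separate observations, because members moved together from array to array, as described next.

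The genes of the family moved together from array to array within a dose group. On each array the number of the 50 genes above their own group mean was counted. It was 4 on liver replicate 3 at 10 mg/kg and 43 on replicate 4 of the same group. It was 9 on liver replicate 2 and 43 on replicate 4 at 1000 mg/kg, and 4 on kidney replicate 4 at 1000 mg/kg. In all, 4 of 25 liver arrays and 2 of 24 kidney arrays had 40 or more genes above, and 5 arrays of each organ had 10 or fewer. Over all genes, the share above the group mean was 43.6% to 56.8% on the liver arrays and 41.3% to 59.5% on the kidney arrays.

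The mean of the 50 genes on each array, as a log2 difference from the control mean, gives the size of that movement. At 1000 mg/kg in liver it was −0.020, −0.086, −0.048 and 0.060, against −0.014, 0.011, 0.010, −0.014 and 0.007 in controls. At 500 mg/kg it was 0.066, 0.073, 0.088 and 0.074, and at 100 mg/kg 0.097, 0.018, 0.109 and 0.045, so all 8 arrays of these doses lay above the controls. These values were not centred on the array medians over genes. Those medians were 6.47 to 6.56 in liver controls, 6.56 to 6.60 at 100 mg/kg and 6.55 to 6.61 at 500 mg/kg. With each array centred, the members' median change was only 0.022 at 100 mg/kg and 0.018 at 500 mg/kg. In kidney the mean of the 50 genes was 0.051, 0.077, 0.061 and −0.049 at 1000 mg/kg, against −0.009, 0.042, −0.057, 0.003 and 0.021 in controls. Kidney arrays at 500 mg/kg had −0.054, −0.064 and −0.007, and 2 of these 3 arrays lay within the control range. The group means of liver were 0.067 at 100 mg/kg and 0.075 at 500 mg/kg. The pooled SD between arrays of a dose group was 0.046 in liver and 0.043 in kidney. It describes single arrays and not a difference of group means. In liver the SD of a group ran from 0.009 at 500 mg/kg to 0.070 at 10 mg/kg, and it was 0.013 in controls. No p-value is given for the mean of the 50 genes.

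**Figure D4:**
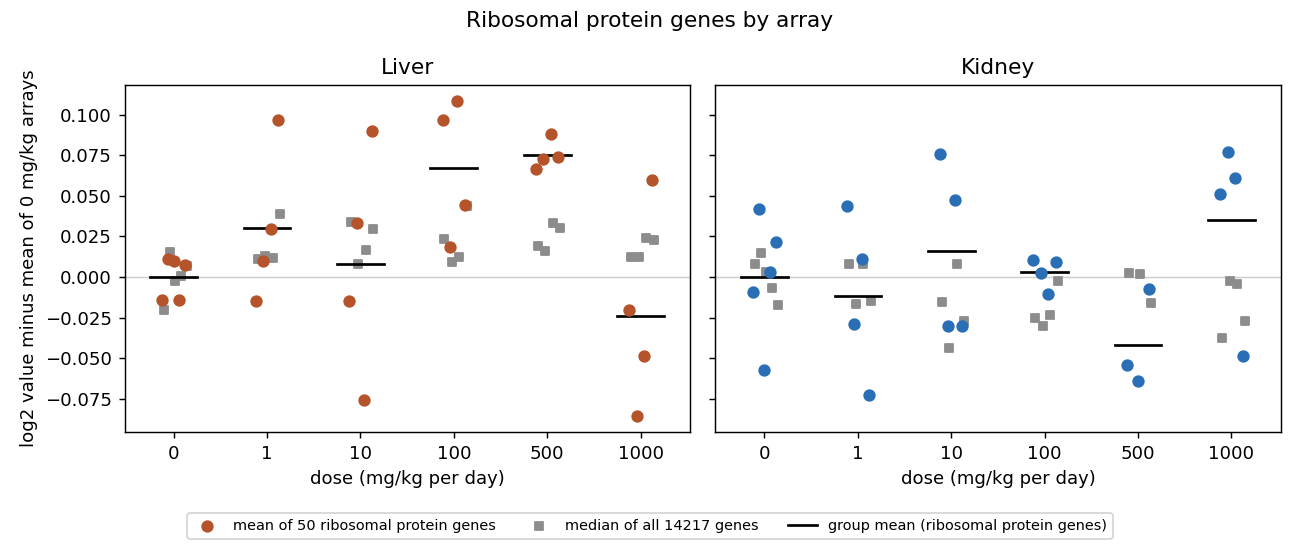
Mean log2 value of the 50 ribosomal protein genes on each array, minus the mean of the 0 mg/kg arrays of that organ (vertical axis), by dose in mg/kg per day (horizontal axis), with the median of all 14217 genes as grey squares. Bars are group means of the ribosomal protein genes, and the liver arrays at 500 mg/kg sit between 0.066 and 0.088 while those at 1000 mg/kg sit between −0.086 and 0.060.

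Single genes of the family varied little between rats of a dose group. The median residual SD of the 50 genes was 0.075 in liver and 0.079 in kidney, against 0.17 and 0.15 for all genes. Bright genes in general varied less: other genes with a mean level of at least 11 had a median of 0.085 in liver (519 genes) and 0.098 in kidney (516 genes), and the 38 brighter members 0.071 and 0.074. The 12 dim members had medians of 0.17 and 0.17. The steadiest were Rpl24 in liver (0.052) and Rpl7a in kidney (0.043). The largest spread belonged to Rpl39l1 (0.40 in liver, 0.30 in kidney) and Rps4y2 (0.28 and 0.26), both among the 12 dim members. Rps4y2 had mean levels of 7.86 in liver and 7.29 in kidney, above the median gene. Both genes lay above the 90th percentile of genes at a similar level. That percentile was 0.29 in liver and 0.24 in kidney for Rpl39l1, and 0.24 and 0.22 for Rps4y2.

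**Figure D5:**
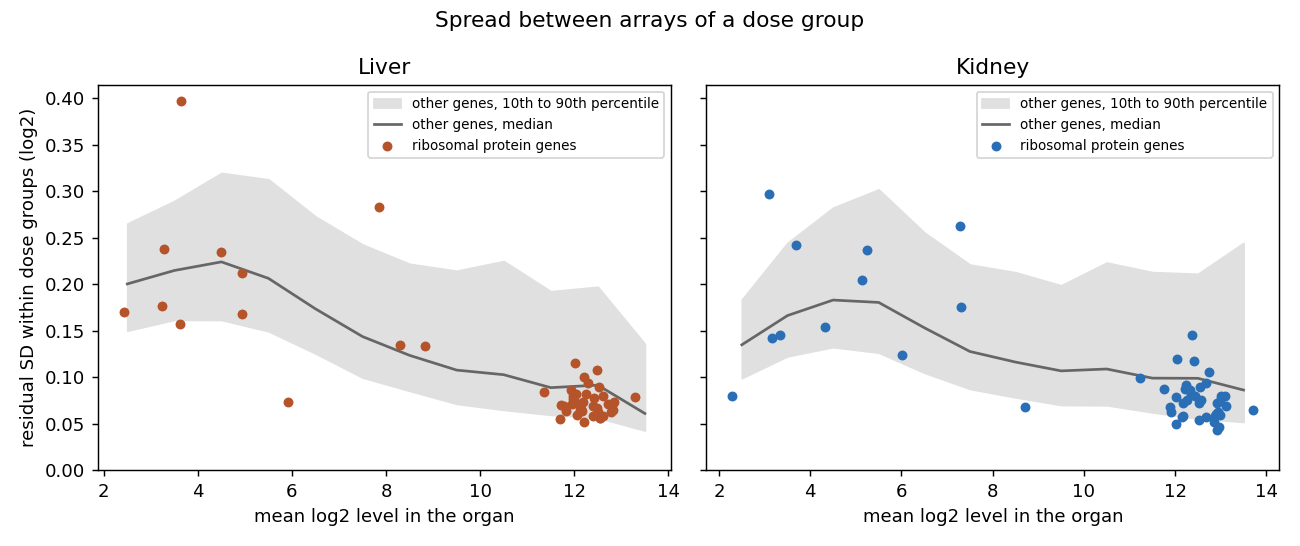
Residual SD within dose groups on the log2 scale (vertical axis) against mean log2 level in the organ (horizontal axis) for the 50 ribosomal protein genes (points), with the median (line) and the 10th to 90th percentile (band) of all other genes. The 38 brighter members have a median of 0.071 in liver and 0.074 in kidney.

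The ribosomal protein probe sets with several symbols were tested in a limma fit over 20862 probe sets. At 1000 mg/kg 0 of 36 were called in liver (percent called 0.628%) and 0 in kidney (0.925%). An unadjusted p under 0.05 was found for 0 of them in liver and 1 in kidney, against 10.8% and 11.4% of all probe sets. Their median log2 changes in liver were 0.078, 0.087 and −0.039 at 100, 500 and 1000 mg/kg. In kidney they were −0.072 at 500 mg/kg and 0.026 at 1000 mg/kg. Rack1, a scaffold protein of the small subunit outside the symbol rule, had changes of 0.008 in liver and 0.034 in kidney at 1000 mg/kg.

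Genes around the ribosome were mostly not called either. Of 32 translation factor genes measured, 0 were called at 1000 mg/kg in liver or kidney, with median changes of 0.044 and −0.010. Of 23 genes that control ribosome synthesis in growth, 0 were called, with medians of 0.12 and −0.051. Among the 73 mitochondrial ribosomal protein genes 0 were called, and in liver 66 of 73 lay above 0 at 1000 mg/kg (median 0.090), 68 at 500 mg/kg (0.12) and 66 at 1 mg/kg (0.097), always against the same control arrays. Of 78 ribosome biogenesis genes measured, 0 were called in liver (median 0.095) and 1 in kidney (median −0.053). That 1 of 78 is 1.28%, near the 1.55% of all genes called there, and the liver share over all genes was 1.05%. The gene called was Gtpbp4, a GTPase of 60S assembly, at 8.51 ± 0.71 at 1000 mg/kg (SD, n = 4) and 7.21 ± 0.34 in controls (SD, n = 5; limma adjusted p = 0.0188). Nop56, a core protein of box C/D particles, had a kidney change of −0.31 (adjusted p = 0.104).

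Of 6 proliferation markers, 1 passed the test in liver at 1000 mg/kg (lower) and 6 in kidney (all lower), where 1.05% and 1.55% of all genes were called. All 6 lay below 0 in liver. The mean of the 6 at 1000 mg/kg minus the control mean was −1.47 to −1.18 on the log2 scale in liver and −1.87 to −1.21 in kidney. The ribosomal protein mean was −0.086 to 0.060 and −0.049 to 0.077 on those arrays, and the part of cell division in its values was not tested. The 3′ minus 5′ log2 difference of the Gapdh control probe sets, a measure of RNA integrity, was 0.005 to 0.189 on liver arrays and 0.325 to 1.00 on kidney arrays. With it as a covariate the median change at 1000 mg/kg was −0.0147 in liver and 0.041 in kidney. On 7 kidney arrays the adipocyte marker mean was over 0.5 above controls, and without them the kidney medians were −0.054 at 500 mg/kg and 0.029 at 1000 mg/kg.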

How the data were processed

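Gene expression was measured in 25 liver and 24 kidney samples on 1 array each. The deposited values are log2 levels per probe set, and the submitters' processing notes name RMA as the authors' summary method. Its version, and whether both organs were normalized together, are not given in the sources used here, so levels are compared within an organ. Because RMA brings arrays to a common distribution, a shift of most genes in 1 direction can be lost. Detection calls were not part of the table.

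Of 31099 probe sets, 20826 had 1 symbol in the platform annotation. For 20758 of them the symbol was looked up through the Entrez identifier. The symbol used differed from the platform's for 1 probe set. Each of 14217 genes was represented by its brightest probe set, by the mean of all 49 arrays. Linear models with 1 mean per dose group and organ were fitted with limma 3.58.1 in R 4.3.3, and two-sided p-values were adjusted over all genes (Benjamini-Hochberg). Slopes over dose rank and a contrast of organs used the same tool. The fits were also run on simulated data with independent errors for each gene. Members moved together from array to array in the real data, so no conclusion is drawn from that simulation. The number of arrays limits the precision. The labels call the samples biological replicates.

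Genes named are those with the smallest p (4 per organ at 1000 mg/kg, 2 at 500 mg/kg, 2 for the slope), 15 listed for their role, and the 2 with the largest residual SD in each organ. From each other list up to 3 with the smallest p could be named. Members and lists were chosen with earlier results of these data known. Alternatives were averaging the probe sets of a gene, brighter genes only, quantile normalization, centring, array weights, a variance trend with robust moderation, a block for the replicate number, 2 groups alone, the Gapdh covariate, no arrays high in adipocyte markers and leaving out each array.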

Additional observations from a re-analysis of the deposited data

Results flagged for a closer look

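An array far from the others of its group, by Dixon's criterion at 95%, occurred in 9 of 253 groups tested (3.56%), and chance flags about 1 group in 20. Rpl41 was at 12.83 on kidney replicate 4 at 1000 mg/kg, where the others lay between 12.94 and 12.95. On liver replicate 4 at 1000 mg/kg it was at 12.40, with the others between 12.28 and 12.29, the same array on which 43 of 50 members lay above their group mean. Rpl39l1 was at 3.44 on liver replicate 3 at 1000 mg/kg, with the others at 3.25 to 3.28. Rpl7 was at 12.30 on liver replicate 4 at 100 mg/kg, with the others at 12.46 to 12.48. Rps23 was at 13.13 on kidney replicate 1 at 1 mg/kg, with the others at 12.95 to 12.97. Rpsa was at 12.50 on kidney replicate 3 at 100 mg/kg, with the others at 12.56 to 12.57. Rpl22 was at 11.66 on liver replicate 3 at 1 mg/kg, with the others at 11.73 to 11.74. Among control arrays, Rplp0 was at 12.53 on kidney replicate 3, with the others at 12.68 to 12.73, and Rps6 at 12.54 on liver replicate 5, with the others at 12.38 to 12.43.

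At 500 mg/kg 15 of the 50 members (30%) lay above the control mean on every liver array and below it on every kidney array, where 438 of 14217 genes (3.08%) did. The reverse pattern occurred in 0 members and 1.79% of all genes. Members moved together from array to array, so the 15 genes are not separate observations. The values were not centred, and with each array centred the members' liver median at 500 mg/kg was 0.018. Of the 22 members chosen by the naming rule, 7 were higher on every liver array and lower on every kidney array. Their mean changes in liver and kidney were 0.084 and −0.11 for Rpl11, 0.14 and −0.037 for Rpl12, 0.069 and −0.060 for Rpl22, and 0.073 and −0.12 for Rpl27. They were 0.053 and −0.11 for Rpl41, 0.14 and −0.095 for Rps15, and 0.13 and −0.036 for Rpsa. The mean of the 50 members was 0.075 in liver and −0.042 in kidney. The contrast of the organs at 500 mg/kg, added after the data were seen, called 2 genes of 14217 and no member. The smallest limma adjusted p of a member was 0.575, for Rpl27.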

How the results depend on the processing

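The count of called members was 0 in the 13 comparisons and under the alternatives run, except that a variance trend with robust moderation called 1 member, Rpl41, in liver at 1000 mg/kg (log2 change −0.18, limma adjusted p = 0.044). Centring each array on its median moved the median change of members to −0.054 in liver at 10 mg/kg, 0.018 in liver at 500 mg/kg, 0.077 in kidney at 1000 mg/kg and −0.148 for the difference between organs. With the mean of all probe sets, the liver change of Rpl7 at 1000 mg/kg was 0.0078. The other median changes, 255 in number, moved by less than the spread between arrays. That spread is the pooled SD of single arrays, so smaller shifts of a group median pass as unmoved. Among them are shifts on centring in liver, from 0.036 to −0.007 at 1 mg/kg and from 0.066 to 0.022 at 100 mg/kg. Leaving out each array in turn left the count at 0. The liver median at 1000 mg/kg then ran from −0.051 to 0.0016, and it was above 0 only without replicate 2 of that dose. The liver medians ran from 0.046 to 0.089 at 100 mg/kg and from 0.057 to 0.082 at 500 mg/kg. The kidney medians ran from −0.065 to −0.033 at 500 mg/kg and from 0.010 to 0.059 at 1000 mg/kg. Within an organ, replicate numbers did not pair dosed with control arrays: same-numbered arrays correlated between −0.32 and 0.30, and 7 of 39 correlated best with their own number. Across organs, arrays of the same dose and number correlated between −0.018 and 0.23, with 20 of 24 closest to their own number, a hint from the data that the labels do not state. With that number as a random block the contrast of organs at 1000 mg/kg called 0 members. With the replicate block within organs the count was 0 in each comparison, and the liver median at 500 mg/kg was 0.082. The medians of the 38 brighter members, the fit over 20862 probe sets, the contrast of organs at 500 mg/kg and the random block were added after the data were seen. The cause of each difference was not tested. Precision is limited by 3 to 5 arrays a group.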
